A study of Mus musculus with 40 samples.

Results

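Plated stroma-vascular cells and isolated adipocytes were compared with each other in mouse inguinal white adipose tissue, the subcutaneous fat depot of the groin. The 6 samples were chosen by their titles, 3 of each kind, out of the 40 samples of the series. The stroma-vascular samples hold the adherent cells of a collagenase digest after 24 h of culture in a basal medium with newborn calf serum. The adipocytes came from a collagenase digest too and were washed in buffer and lysed, and their labels give no plating. Culture and cell type therefore cannot be told apart in this comparison. The sources used here do not give strain, sex, age or the number of animals. Samples of a group are not said to be separate animals, and their spread can be technical. The main p-values rest on a spread pooled over all 14 groups of the series, not on that of these 6 samples alone. Both groups carry no stated genetic change or drug. Of the 12 other groups of the series, 2 serve for a second comparison: 4 preadipocyte lines (5 samples) and 3T3-F442A adipocytes after 7 days of differentiation (3 samples).

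Collagenase frees fat cells from their matrix. The buoyant adipocytes store triglyceride in a lipid droplet, release fatty acids through a chain of lipases and secrete adipokines such as resistin. The pelleted stroma-vascular fraction is a mixture that includes fibroblast-like adipocyte progenitors, endothelial cells, pericytes, macrophages and lymphocytes. Keeping only the cells that stick to plastic selects among them, and cells that spread on plastic build actin fibres and attachment sites. In bulk RNA, fewer cells of a type and less RNA per cell cannot be told apart.

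RNA was labelled with 33P and hybridized to nylon filters that carry 5760 cDNA spots. Levels below are quantile-normalized spot intensities, given in units of 1000 of the scanner's values. The median spot of all arrays stood at 52.6 units, and 5% of all values lay below 33.3 units. That level may lie near the filter's own background, which the values do not give. No background was subtracted in the main fit, and the sources used here name no such step by the authors. Any background left in the values makes folds understate the change in RNA, most of all for dim spots. Differences are log2 differences of stroma-vascular cells minus adipocytes after adding 36.4 units to each value, given ± SE. The array of stroma-vascular sample 1 stands apart: its 95th percentile was 4.17 times its median, against 9.86 and 7.48 times in the other stroma-vascular arrays and 9.89, 12.3 and 8.39 times in the adipocyte arrays. Arrays correlated with r between 0.917 and 0.966 within stroma-vascular cells, between 0.934 and 0.966 within adipocytes and between 0.886 and 0.929 across both. The lowest values within each group involved sample 1.

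Of the 5760 spots, 36 (0.625%) were called at a Benjamini-Hochberg adjusted p under 0.05 in limma's moderated test, 26 higher in stroma-vascular cells (0.451%) and 10 lower (0.174%). The highest named genes were those of thymosin beta-10 and plasminogen activator inhibitor 2, and the lowest were Irf2bp2, C9orf72 and the gene of resistin. Of the 36 spots, 23 name 1 gene (17 higher, 6 lower) and 13 have no gene in the annotation (9 higher, 4 lower). Without regard to a test, all 3 stroma-vascular values lay above all 3 adipocyte values at 528 spots (9.17%) and below them at 623 spots (10.8%). Deviations of same-numbered samples from their group means correlated with 0.102 to 0.386, and their pairing was taken from these data, not from the labels. A fit of these 6 arrays with the sample number as a replicate block called 231 spots (4.01%), 156 higher (2.71%) and 75 lower (1.3%). These 231 include all 36, and in 22 of them the groups overlap. With the block inside the fit of all 14 groups, 41 spots were called, again with all 36 among them. Below, "called" means in the fit without the block, and genes called with the block alone are named as such. The 36 calls depended on single arrays: 14 spots were called without adipocyte sample 2 (9 higher, 5 lower), 16 without adipocyte sample 3 (11 higher, 5 lower) and 17 without stroma-vascular sample 2 (10 higher, 7 lower). Without adipocyte sample 1 there were 37, with 18 higher and 19 lower. Without stroma-vascular sample 1, 27 spots were called, 21 of them among the 36. Tmsb10, Serpinb2, Apol9a, Kcnh2, Irf2bp2 and Retn kept theirs whichever 1 of the 6 arrays was left out.

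**Figure D1:**
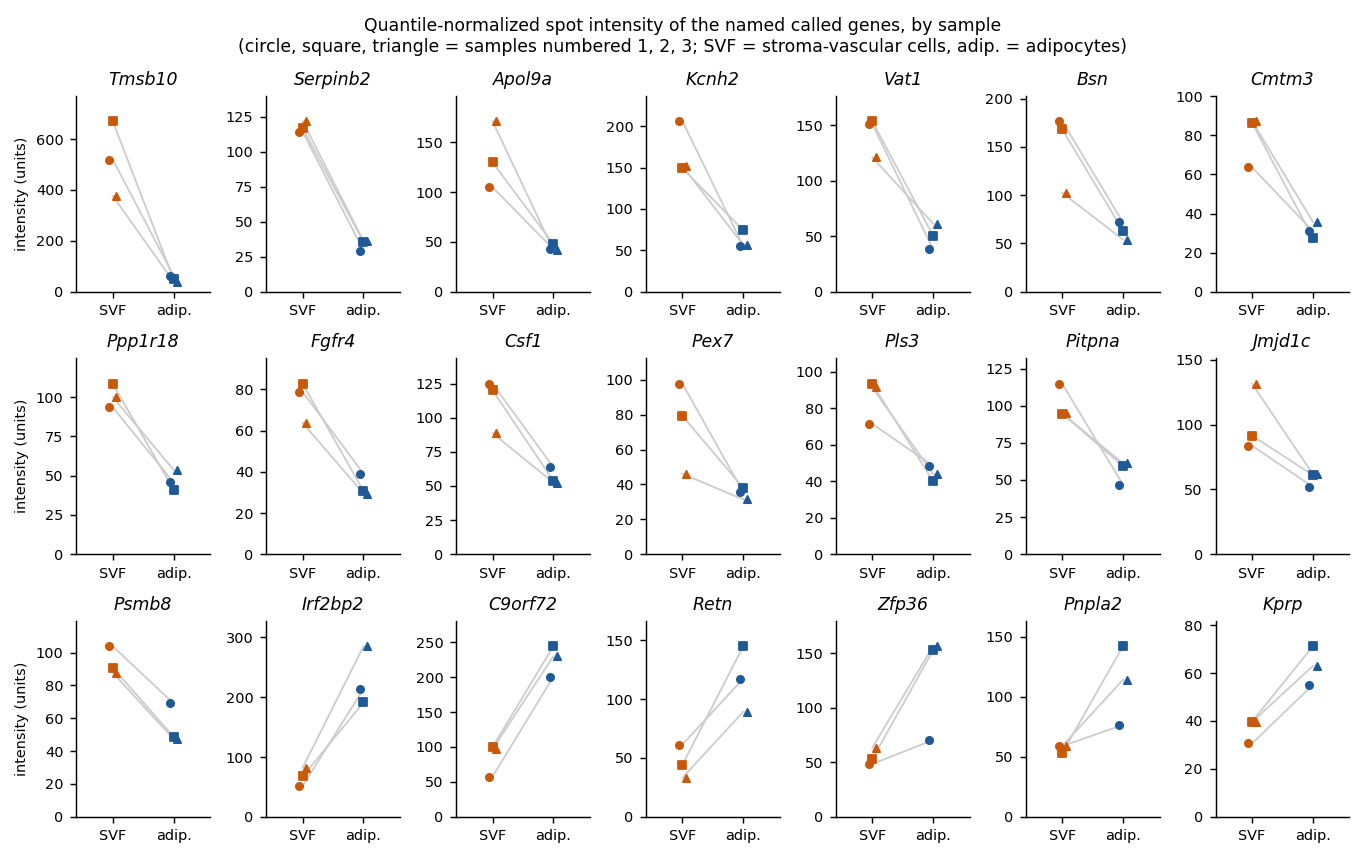
Quantile-normalized spot intensity (units of 1000, linear axis from 0) of 21 of the 23 called genes (Tnc and Lamtor3 are not shown), with stroma-vascular cells (orange) left of adipocytes (blue) and grey lines between samples of the same number. The first 15 panels show genes higher in stroma-vascular cells and the last 6 genes lower there; the groups do not overlap in any panel, and Tmsb10 has the widest gap.

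Among the 17 named genes called higher in stroma-vascular cells, 3 have products that bind or organise actin: Tmsb10, Pls3 and Ppp1r18. Pls3 and Ppp1r18 were picked from the called genes, and only Tmsb10 is on the list of actin genes below. Tmsb10 encodes thymosin beta-10, a small protein that binds actin monomers. Its spot had 519.7, 670.4 and 377 units in stroma-vascular samples 1 to 3, against 62.3, 49.7 and 39.2 units in the adipocyte samples. Each stroma-vascular value was several times any adipocyte value, and the difference was 2.66 ± 0.50 (adjusted p = 0.00362). Pls3, encoding the actin bundler plastin 3, averaged 85.4 ± 12.2 units in stroma-vascular cells and 44.1 ± 4.21 units in adipocytes (SD, n = 3 each), a difference of 0.59 ± 0.13 (adjusted p = 0.0209). Ppp1r18, which targets protein phosphatase 1 to actin, averaged 100.6 ± 7.54 units in stroma-vascular cells and 46.8 ± 6.40 units in adipocytes (0.72 ± 0.14, adjusted p = 0.00492). Pls3 lost its call without sample 2 or 3 of either group (0.55 to 0.68 over the fits that leave out 1 array), and Ppp1r18 without sample 2 of either group (0.67 to 0.78).

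On the list of actin cytoskeleton and adhesion genes, 6 were measured, 1 was called (Tmsb10) and 4 were called with the block, all higher. Over all spots, 0.451% were called higher and 2.71% were with the block. In all 6 genes the stroma-vascular values lay above all adipocyte values, against 9.17% of all spots. Their median difference was 0.68, against -0.02 over all spots. Lgals1, encoding the glycan-binding galectin-1, had 255.3, 126.9 and 260.8 units in stroma-vascular cells, against 75.4, 111 and 87.8 units in adipocytes. Its middle stroma-vascular sample lay near the brightest adipocyte sample, and the difference of 0.93 ± 0.39 was called with the block alone (adjusted p = 0.0393, against 0.452 without it). Myl12a, a regulatory light chain of non-muscle myosin (0.75 ± 0.30, adjusted p = 0.0032 with the block and 0.408 without), was called with the block alone, as was Anxa5, the phospholipid-binding annexin A5 (0.61 ± 0.22, adjusted p = 0.0289 with the block and 0.35 without). Itgb1, the beta chain shared by many matrix receptors, differed by 0.49 ± 0.19 and Cnn3, calponin 3, by 0.20, neither called in either fit. Pls3 and Ppp1r18 are not on this list. The 6 stayed positive under each other scaling tried, except that without any scaling 5 did while the median of all spots moved to -0.27.

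The protease inhibitor gene Serpinb2 had the smallest adjusted p of all spots. It encodes plasminogen activator inhibitor 2, a serpin found mostly inside cells and strongly induced in activated macrophages. Its spot had 114, 117 and 122 units in stroma-vascular cells, against 29.4, 35.6 and 36.1 units in adipocytes. The adipocyte values were at the level of the dimmest spots, and the difference was 1.14 ± 0.11 (adjusted p = 1.38e-07). Of the 5 measured proteases and protease inhibitors, Serpinb2 alone was called, and Slpi, the secretory leukocyte protease inhibitor, with the block alone (60.1 ± 5.42 units in stroma-vascular cells and 31.0 ± 7.02 units in adipocytes, SD, n = 3 each; 0.52 ± 0.14, adjusted p = 0.0243 with the block and 0.0975 without). Ctsb, the lysosomal protease cathepsin B, differed by 0.28 ± 0.12 and was not called. Among all spots, 0.451% were called higher and 2.71% were with the block.

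Csf1 encodes macrophage colony-stimulating factor, the growth factor on which most tissue macrophages depend. It had 125, 120.1 and 88.7 units in stroma-vascular cells, against 63.8, 53.7 and 52.5 units in adipocytes. The groups did not overlap (0.66 ± 0.13, adjusted p = 0.0069), and the call was lost without stroma-vascular sample 1 or 2 or adipocyte sample 2 or 3, with differences from 0.59 to 0.77 over the 6 fits that leave out 1 array. Of the 5 measured cytokines, chemokines and growth factors, Csf1 was the only called gene. The share of all spots called higher was 0.451%, and 2.71% with the block. Ccl9, a chemokine of macrophages, had 171, 134 and 137 units in stroma-vascular cells, against 78.9, 72.2 and 65.5 units in adipocytes, and was called with the block alone (0.75 ± 0.29, adjusted p = 0.0017 with the block and 0.361 without). Pdgfa differed by 0.26 ± 0.18, Igf2 by -0.08 ± 0.17 and Cxcl12 by -0.03, none called.

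The RefSeq promoter windows of Serpinb2 and Csf1, called higher in stroma-vascular cells, and of Retn and Pnpla2, called lower, are shown because these genes stand for both directions of the comparison. Each is the stretch of 250 bases before the first start that the promoter table lists on GRCm38.p6, written 5′ to 3′ on the gene's strand, and capitals mark every match to the motifs searched on both strands.
Serpinb2, chr1:107511173-107511422, plus strand: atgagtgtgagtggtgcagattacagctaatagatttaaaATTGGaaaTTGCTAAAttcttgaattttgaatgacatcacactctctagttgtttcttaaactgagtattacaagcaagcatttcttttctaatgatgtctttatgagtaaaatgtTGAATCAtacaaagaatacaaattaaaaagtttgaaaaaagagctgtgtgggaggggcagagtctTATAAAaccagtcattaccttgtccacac
Csf1, chr3:107760470-107760719, minus strand: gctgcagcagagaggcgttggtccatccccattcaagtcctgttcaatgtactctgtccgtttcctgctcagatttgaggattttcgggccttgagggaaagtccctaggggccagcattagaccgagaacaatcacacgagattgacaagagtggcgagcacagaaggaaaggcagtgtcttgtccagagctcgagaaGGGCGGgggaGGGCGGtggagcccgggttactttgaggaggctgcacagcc
Retn, chr8:3655520-3655769, plus strand: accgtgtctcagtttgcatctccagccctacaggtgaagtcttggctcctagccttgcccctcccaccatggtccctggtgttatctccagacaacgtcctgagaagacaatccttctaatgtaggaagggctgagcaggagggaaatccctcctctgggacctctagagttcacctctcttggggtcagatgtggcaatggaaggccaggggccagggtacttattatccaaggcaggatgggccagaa
Pnpla2, chr7:141454938-141455187, plus strand: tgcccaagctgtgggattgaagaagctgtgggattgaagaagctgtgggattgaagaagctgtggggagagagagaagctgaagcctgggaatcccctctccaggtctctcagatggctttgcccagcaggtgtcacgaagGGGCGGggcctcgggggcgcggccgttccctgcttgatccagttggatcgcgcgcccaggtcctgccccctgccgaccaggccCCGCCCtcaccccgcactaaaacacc
The Csf1, Retn and Pnpla2 windows end where the annotated gene begins, whereas the Serpinb2 window, at the first of 2 listed starts, lies inside the annotated gene (chr1:107500892-107525600) and not before its outermost start. The Serpinb2 window holds 1 match each to TGANTCA (AP-1), TTGCNNAA (C/EBP), TATAAA (the core promoter box of that spelling) and CCAAT. These letters occur in 6.87%, 9.55%, 13.0% and 34.5% of all promoter windows of this length. The Csf1 and Pnpla2 windows hold 2 matches each to GGGCGG (GC box), which occurs in 32.9% of windows, and the Retn window holds no match to the 5 motifs. A match describes letters and not a bound site.

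Interferon-induced and antigen-presentation genes split. Apol9a, an interferon-induced apolipoprotein L gene, had 105, 129.9 and 171 units in stroma-vascular cells, against 42.7, 47.8 and 41.7 units in adipocytes. The groups lay far apart (1.08 ± 0.18, adjusted p = 0.00104). Psmb8, a catalytic subunit of the immunoproteasome, averaged 94.1 ± 8.56 units in stroma-vascular cells and 55.0 ± 12.1 units in adipocytes (SD, n = 3 each), a difference of 0.52 ± 0.13 just inside the threshold (adjusted p = 0.0483). Its call held only without adipocyte sample 1 among the 6 fits that leave out 1 array (0.46 to 0.63). B2m, the light chain of class I molecules, had 406.4, 717 and 947 units in stroma-vascular cells, against 125, 273 and 253 units in adipocytes. It was low in sample 1 of both groups, and the difference of 1.50 ± 0.43 was called with the block alone (adjusted p = 0.000296, against 0.116 without it). Gbp2, an interferon-induced GTPase, averaged 124 ± 33.7 and 76.7 ± 23.4 units in stroma-vascular cells and adipocytes, with groups that overlap (0.50 ± 0.13, adjusted p = 0.0127 with the block alone).

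Of the 10 measured members of this list, 2 were called and 4 were called with the block, all higher, with a median difference of 0.21. Over all spots, 0.451% were called higher and 2.71% were with the block. The class II genes H2-Aa and H2-Eb1, carried by antigen-presenting cells, differed by -0.08 and 0.02 and stayed near 40 units in both groups. Tapbp, which loads peptides onto class I, differed by 0.00 and Psmb9, the partner of Psmb8, by 0.20, neither called.

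Of 8 matrix and fibroblast genes, only Tnc was called, where 0.451% of all spots were called higher. Tenascin-C is a matrix protein of remodelling tissue, and its spot had 100, 82.1 and 83.6 units in stroma-vascular cells, against 55.0, 48.8 and 58.9 units in adipocytes (0.46 ± 0.11, adjusted p = 0.0429). The call was lost when any 1 of the 6 arrays was left out (0.40 to 0.50). Serpinh1, the collagen chaperone, differed by 0.60 ± 0.17 and Timp2, an inhibitor of matrix metalloproteinases, by 0.67 ± 0.32, both with groups that do not overlap and neither called. Eln, elastin, averaged 98.5 ± 12.8 units in stroma-vascular cells and 147.6 ± 49.8 units in adipocytes (-0.42 ± 0.23), and Mmp2, P4ha1 and Col18a1 differed by less than 0.10 in either direction; none of them was called. The list's median was 0.10.

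All 9 measured ribosomal protein genes had a positive difference, with a median of 0.45, where 45.6% of all spots had one. None was called, and 5 were called with the block, where 2.71% of all spots were called higher with it. In 8 of the 9 the stroma-vascular values lay above all adipocyte values, against 9.17% of all spots. Rpl15 had 163, 145 and 188 units in stroma-vascular cells, against 56.0, 63.7 and 60.4 units in adipocytes (1.06 ± 0.27, adjusted p = 0.000584 with the block and 0.0561 without). Rps3 had 86.7, 147 and 174 units, against 42.1, 59.6 and 37.1 units in adipocytes (1.03 ± 0.34, adjusted p = 0.00487 with the block and 0.256 without). Ribosomal protein genes have many processed copies whose transcripts can bind the same spot. The 11 translation factor genes had a median of 0.00 and no call in either fit.

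**Figure D2:**
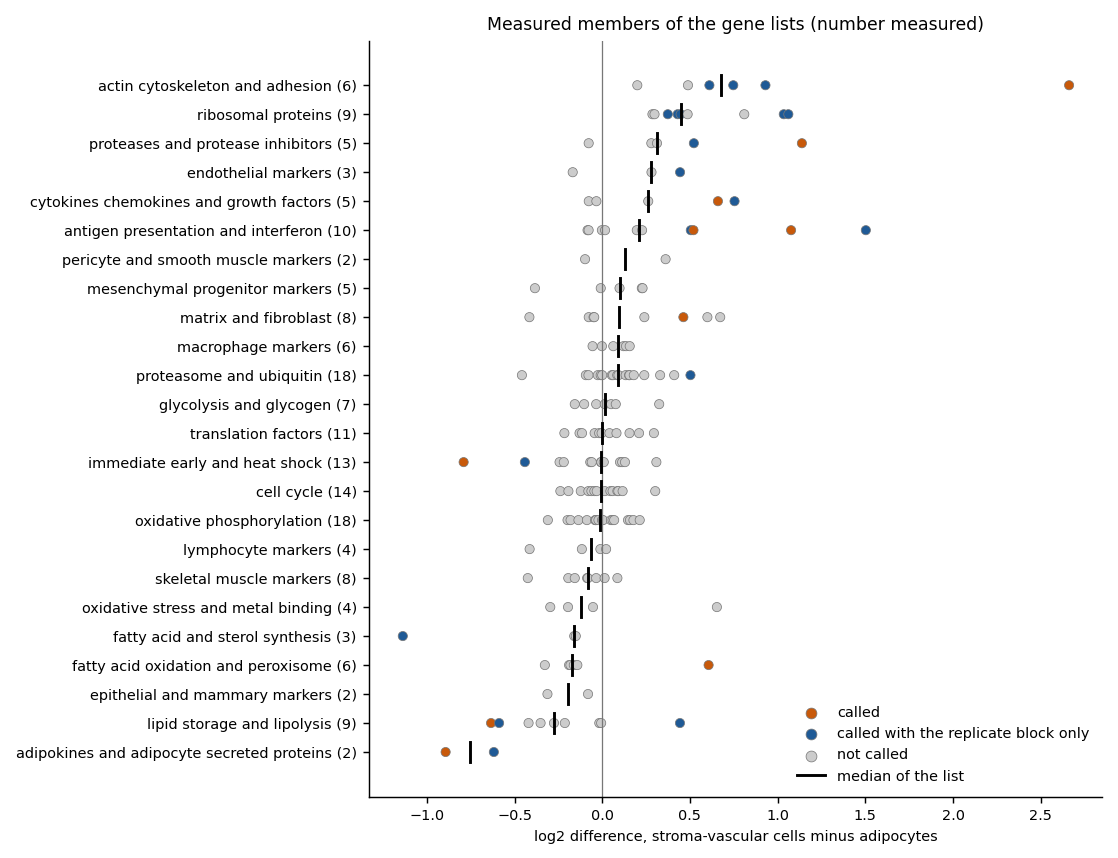
Log2 difference of stroma-vascular cells minus adipocytes for the measured members of each gene list with at least 2 (number measured in parentheses), with called genes in orange, genes called with the replicate block only in blue and the list median as a black bar. Actin and ribosomal protein genes lie wholly right of 0. Adipokine, fatty acid and sterol synthesis, and epithelial and mammary genes lie wholly left of it, and respiratory chain and cell cycle genes around 0.

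The other called genes higher in stroma-vascular cells have varied roles. Kcnh2, the potassium channel gene known best from the heart, had 206, 149 and 152 units in stroma-vascular cells, against 55.1, 74.2 and 56.6 units in adipocytes (1.06 ± 0.18, adjusted p = 0.00104). Vat1, a vesicle and mitochondrial membrane protein gene, averaged 142 ± 18.2 and 49.9 ± 11.6 units in stroma-vascular cells and adipocytes (1.05 ± 0.25), Bsn, the presynaptic scaffold bassoon, 149 ± 40.7 and 63.0 ± 8.88 units (0.88 ± 0.21), and Cmtm3, a chemokine-like membrane protein gene, 79.1 ± 13.4 and 31.4 ± 4.18 units (0.76 ± 0.16). Of these, Kcnh2 kept its call whichever array was left out, and Vat1 lost it with any (0.95 to 1.14). Bsn kept it only without stroma-vascular sample 3 (0.77 to 1.08), and Cmtm3 lost it without stroma-vascular sample 2 or 3 or adipocyte sample 2 (0.71 to 0.86). Jmjd1c, a jumonji domain protein gene, had 83.7, 91.6 and 131 units in stroma-vascular cells, against 51.9, 61.0 and 61.7 units in adipocytes (0.54 ± 0.11, adjusted p = 0.0055), and lost its call without stroma-vascular sample 3 (0.39 to 0.63). Pitpna, a phospholipid transfer protein gene, differed by 0.58 ± 0.13, a call lost with any array left out (0.51 to 0.62), and Lamtor3, a scaffold of lysosomal signalling, by 0.50 ± 0.12. The growth factor receptor gene Fgfr4 (0.68 ± 0.15) and the peroxisomal import receptor gene Pex7 (0.61 ± 0.14) were called too, but their spots, 1958 and 1960, stand directly before and after that of Tmsb10 (1959) in the table. Pex7 kept its call only without stroma-vascular sample 3 (0.45 to 0.80) and Fgfr4 only without that sample or adipocyte sample 1 (0.63 to 0.76). Across the table, the difference at a spot correlated with that of the next one with r = 0.264 (a description over 5760 spots), and 5 of the 36 called spots have a called neighbour; the part of neighbouring spots in these calls was not tested.

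Genes called higher with the block alone included the transcription cofactor Cited2 (204 ± 31.7 units in stroma-vascular cells and 79.9 ± 20.9 units in adipocytes, SD, n = 3 each; 1.05 ± 0.27, adjusted p = 0.000933 with the block and 0.0601 without). The purine synthesis gene Adsl differed by 1.23 ± 0.45, Ttll10, of the tubulin ligase-like family, by 1.08 ± 0.45, and Mapk1ip1 by 1.03 ± 0.31. Snf8, of the endosomal sorting complex, differed by 1.49 ± 0.50 at 1 spot and by 0.65 ± 0.33 at the other. Luc7l2, a splicing factor gene, differed by 1.14 ± 0.46 at 1 spot and by 0.06 and -0.02 at its other 2 spots, so its spots disagree.

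Retn and Pnpla2, genes of an adipocyte hormone and a lipase, were called lower in stroma-vascular cells. Retn encodes resistin, a hormone that mouse fat cells secrete. It had 61.4, 44.2 and 33.1 units in stroma-vascular cells, against 117, 145 and 89.2 units in adipocytes. The stroma-vascular values lay around or below the filter's median spot, and the difference was -0.89 ± 0.15 (adjusted p = 0.00119). Rbp4, the retinol carrier that fat secretes alongside liver, had 55.0, 68.6 and 69.2 units in stroma-vascular cells, against 71.9, 152 and 143 units in adipocytes. Adipocyte sample 1 lay just above the stroma-vascular values, and Rbp4 was called with the block alone (-0.62 ± 0.24, adjusted p = 0.0247 with the block and 0.387 without). These 2 were the only adipokine genes measured.

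Pnpla2, the adipose triglyceride lipase that starts the breakdown of stored fat, had 58.9, 53.0 and 59.1 units in stroma-vascular cells, against 76.6, 142 and 114 units in adipocytes (-0.63 ± 0.11, adjusted p = 0.00245). Here too adipocyte sample 1 was the lowest of its group, and the difference ran from -0.81 to -0.48 over the 6 fits that leave out 1 array, with the call lost without adipocyte sample 2. Of 9 measured genes of lipid storage and lipolysis, Pnpla2 alone was called, 8 had a negative difference (6 to 8 over the scalings and the trend removal tried), and the median was -0.28. Among all spots, 0.174% were called lower and 1.3% were with the block. A positive difference was seen at 45.6% of them, and their median was -0.02. Cidec, a lipid droplet protein that lets droplets grow, averaged 53.2 ± 20.5 units in stroma-vascular cells and 100.2 ± 42.2 units in adipocytes; its groups overlap, yet all 3 same-numbered pairs had nearly the same difference (-0.52, -0.52 and -0.73), and it was called with the block alone (-0.59 ± 0.19, adjusted p = 0.00712 with the block and 0.204 without). Lpl, the lipase that breaks down the triglyceride of plasma lipoproteins, differed by -0.42 ± 0.17 with overlapping groups (adjusted p = 0.434). Cav2, the caveolin 2 gene, ran the other way (113 ± 9.23 units in stroma-vascular cells and 73.9 ± 14.6 units in adipocytes; 0.44 ± 0.17, adjusted p = 0.0306 with the block alone). Bscl2, Plin5, Aqp7, Abhd5 and Dgat1 lay between -0.35 and -0.01 and were not called.

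Genes of fat metabolism beyond the droplet gave few calls. Of 6 genes of fatty acid oxidation and the peroxisome, only Pex7 was called, and the other 5, among them Hadh (-0.33 ± 0.17) and Cpt2 (-0.16 ± 0.11), were negative and not called. By comparison, 0.451% of all spots were called higher, and 45.6% had a positive difference. Fdps, which makes farnesyl diphosphate for sterols and prenyl groups, had 64.9, 119 and 130 units in stroma-vascular cells, against 202, 279 and 336.3 units in adipocytes. The gap was wide in each pair, and the gene was called with the block alone (-1.14 ± 0.29, adjusted p = 0.000325 with the block and 0.0601 without). Mvd, an earlier enzyme of that pathway, differed by -0.15 ± 0.14 and Elovl6, a fatty acid elongase, by -0.16 ± 0.12. The 18 respiratory chain genes had a median of -0.01 and the 7 glycolysis and glycogen genes one of 0.01, with no call in either fit.

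Of the 6 named genes called lower in stroma-vascular cells, Irf2bp2 and C9orf72 differed the most. Irf2bp2, a corepressor that binds interferon regulatory factor 2, had 51.3, 67.5 and 82.1 units in stroma-vascular cells, against 214, 191 and 285 units in adipocytes (-1.36 ± 0.22, adjusted p = 0.000747). C9orf72, a guanine exchange factor gene with roles in membrane traffic, had 57.6, 99.8 and 96.9 units, against 200.7, 244 and 230.0 units in adipocytes (-1.13 ± 0.26, adjusted p = 0.0264), a call that held only without adipocyte sample 1 (-1.22 to -0.95). Zfp36, an immediate early gene whose product speeds the decay of cytokine mRNA, had 48.5, 52.9 and 63.3 units in stroma-vascular cells, against 70.5, 153 and 157 units in adipocytes (-0.79 ± 0.15, adjusted p = 0.00416), and lost its call without adipocyte sample 2 or 3 (-1.07 to -0.64). Its relative Zfp36l1 was called with the block alone (-0.44 ± 0.15, adjusted p = 0.0448 with the block and 0.279 without). The other 11 measured immediate early and heat shock genes, Jun, Myc, Dusp1, Ier2 and Ier3 among them, were not called in either fit, and the 13 had a median of -0.01. Among all spots, 0.174% were called lower and 1.3% were with the block. Kprp, a gene known from the epidermis, averaged 36.6 ± 5.21 and 63.1 ± 8.06 units in stroma-vascular cells and adipocytes (-0.45 ± 0.11, adjusted p = 0.0483); its spot, 5514, neighbours the called unnamed spot 5515, which differed by -1.51, and its call held only without adipocyte sample 1 (-0.50 to -0.38).

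Further genes were lower with the block alone. Zc3h8, a zinc finger gene, averaged 129.9 ± 29.3 units in stroma-vascular cells and 291 ± 33.3 units in adipocytes (-0.99 ± 0.28), and Fam135a, of no role stated here, 164 ± 46.5 and 359.6 ± 161 units (-0.93 ± 0.41). The tryptophan pathway gene Kmo differed by -0.71 ± 0.22, the phosphatase gene Mtmr7 by -0.67 ± 0.20, the reductase gene Cyb5r4 by -0.62 ± 0.21, the detoxification gene Gstz1 by -0.62 ± 0.17 and the ubiquitin ligase gene Rnf34, whose groups overlap, by -0.61 ± 0.22. Fgb, the fibrinogen beta chain of liver, differed by -0.65 ± 0.25. Their adjusted p lay between 0.000561 (Zc3h8) and 0.0247 (Gstz1) with the block and between 0.0766 and 0.475 without it.

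Marker genes check the labels in part. The adipocyte label goes with higher Retn, Rbp4, Pnpla2 and Cidec in those samples, Rbp4 and Cidec with the block alone. Among the other measured genes of lipid storage, Cav2 ran the other way (0.44 ± 0.17, called with the block alone). Lpl, Bscl2, Plin5, Aqp7, Abhd5 and Dgat1 were negative and not called in either fit. The stroma-vascular label has little direct support on these filters. Few of its markers were measured, and of the progenitor, endothelial, macrophage and pericyte markers only Cdh5 was called, with the block alone. Of 5 mesenchymal progenitor markers none was called: Zfp423, a regulator of the preadipocyte state, differed by -0.38 ± 0.14, Pi16 by 0.23 ± 0.15, Cd24a by 0.23 ± 0.17, Prrx1 by 0.10 ± 0.16 and Cd34 by -0.01. The stroma-vascular values lay below all adipocyte values for Zfp423 and above them for Pi16. Cdh5, the endothelial cadherin, had 64.0, 91.5 and 83.8 units in stroma-vascular cells, against 44.3, 50.1 and 51.6 units in adipocytes (0.44 ± 0.14, adjusted p = 0.0286 with the block and 0.18 without). The endothelial receptor gene Eng differed by 0.28 ± 0.13 and Sox17 by -0.17 ± 0.13, so the endothelial markers were split.

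None of 6 macrophage markers was called in either fit. Their summed intensity ran from 366 to 404.7 units in stroma-vascular cells, against 345 to 377 units in adipocytes. Cybb, the phagocyte oxidase subunit, averaged 63.8 ± 1.86 units in stroma-vascular cells and 55.0 ± 7.70 units in adipocytes, where peritoneal macrophages of the same series, also taken 24 h after plating, averaged 345 units. Itgb2, the leukocyte integrin beta 2, averaged 48.8 ± 1.31 and 40.1 ± 2.99 units in stroma-vascular cells and adipocytes, and 149 units in those macrophages. Serpinb2, Slpi and Ccl9, higher in stroma-vascular cells as given above, were all brightest in peritoneal macrophages too, at 211, 272 and 655 units. Cybb and Itgb2 themselves differed by 0.14 ± 0.28 and 0.16 ± 0.18 between stroma-vascular cells and adipocytes; the part of macrophages in the 3 genes was not tested.

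Of the remaining cell type lists, none of the 4 lymphocyte, 8 skeletal muscle, 2 epithelial and 2 pericyte and smooth muscle markers was called in either fit, with medians of -0.06, -0.08, -0.20 and 0.13. The muscle enzyme gene Ckm differed by -0.42 ± 0.22 and the B cell gene Cd79b by -0.41 ± 0.21. The globin gene Hbb-b1, a sign of blood, averaged higher by 0.26 ± 0.26 and was not called. The 14 cell cycle genes had a median of -0.01 and no call, with Mki67 at -0.19 ± 0.14, Cdk2 at 0.30 ± 0.15 and Cdc25b at -0.24 ± 0.11. Of 18 proteasome and ubiquitin genes, Ube2n was called with the block alone (0.50 ± 0.17, adjusted p = 0.0149 with the block and 0.274 without). With the block, 2.71% of all spots were called higher. Pde3b, an enzyme of the insulin response, differed by -0.05 ± 0.13 and the mast cell gene Mcpt4 by 0.03 ± 0.12. Mt1, the metallothionein gene, differed by 0.65 ± 0.29 with overlapping groups.

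The 14 groups of the series place these genes. Tmsb10, Apol9a, Kcnh2, Bsn, Csf1, Jmjd1c and Psmb8 had their highest group mean in stroma-vascular cells, though for Tmsb10 the preadipocyte lines came next with 448 units and a range from 168 to 881 units that takes in the stroma-vascular mean of 522 units. Csf1 averaged 111 ± 19.7 units in stroma-vascular cells, and no other group mean passed the 68.1 units of the preadipocyte lines. Serpinb2 averaged 118 ± 3.85 units in stroma-vascular cells, between peritoneal macrophages at 211 ± 15.1 units and the macrophage line J774 at 51.5 ± 1.30 units, and none of its lower groups differed from the next by more than their spread. Retn, Zfp36 and Pnpla2 were highest in adipocytes. Retn averaged 117 ± 27.9 units there and at most 53.0 units in any other group, 42.8 units in 3T3-F442A adipocytes included. Pnpla2 averaged 111 ± 32.9 units in adipocytes and 79.0 ± 7.93 units in 3T3-F442A adipocytes, whose range of 73.8 to 88.1 units overlaps that of adipocytes. These ranks describe levels and were not tested.

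**Figure D3:**
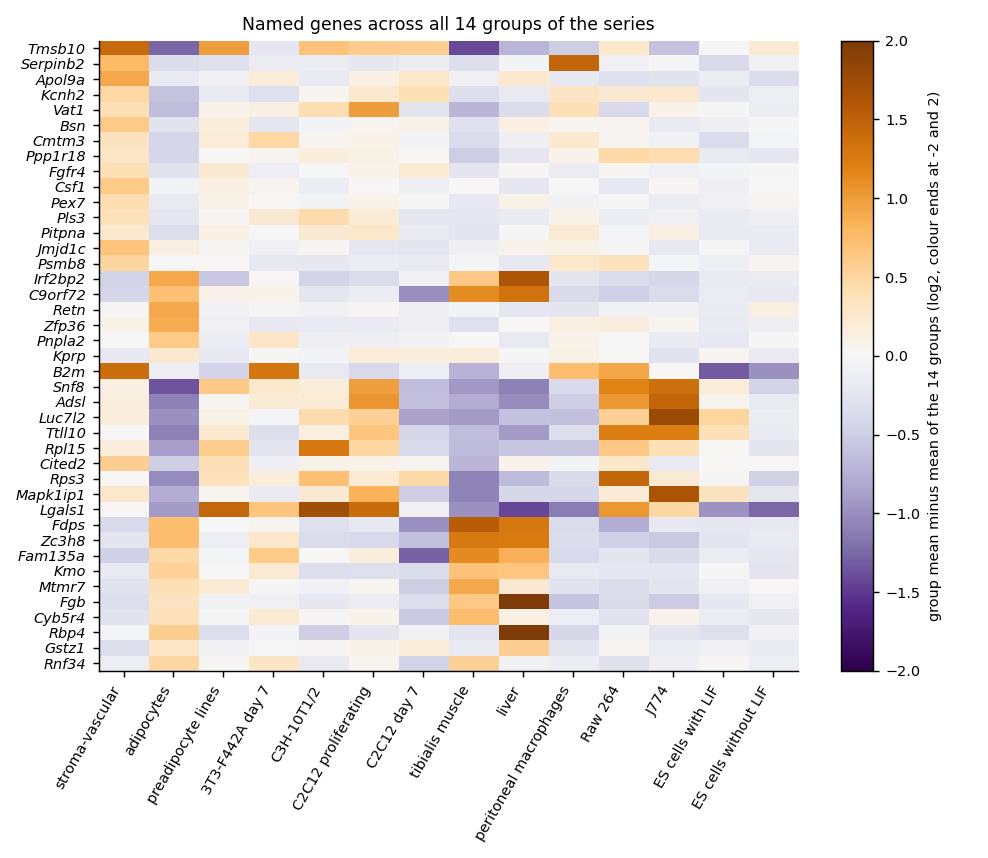
Group mean of each named gene minus its mean over the 14 groups (log2, colour from -2 to 2), with stroma-vascular cells in the first column and adipocytes in the second. Irf2bp2, C9orf72, Fdps and Zc3h8 are high in liver and tibialis muscle as well as in adipocytes, whereas Retn, Zfp36 and Pnpla2 stand out in adipocytes; Serpinb2 stands out in peritoneal macrophages and stroma-vascular cells.

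A pattern seen after the values were known concerns the other sample kinds. Several genes low in stroma-vascular cells were high in whole organs as well as in adipocytes. Irf2bp2 averaged 67.0 units in stroma-vascular cells, against 230.2 units in adipocytes, with 421 units in liver and 179 units in tibialis muscle. Fdps averaged 105 units in stroma-vascular cells, against 272 units in adipocytes, with 453 units in liver and 532 units in muscle. C9orf72 had 84.8 units in stroma-vascular cells, against 225 units in adipocytes, with 403 and 308 units in liver and muscle. Zc3h8, Kmo and Fam135a likewise averaged lower in stroma-vascular cells than in adipocytes, liver and muscle. Retn, Zfp36 and Pnpla2 did not: liver and muscle averaged 33.3 and 41.1 units for Retn and 46.1 and 58.2 units for Pnpla2.

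Over all 5760 spots, the difference of stroma-vascular cells minus adipocytes correlated with the mean of the 2 organs minus the mean of 9 other cell groups with r = -0.606. It ran from -0.63 to -0.39 under the other scalings and from -0.60 to -0.54 without 1 stroma-vascular array. The 9 are the cultured lines, ES cells with LIF and peritoneal macrophages, while ES cells without LIF were left out. The comparisons share no sample. Their points share the spots of the filters and a scaling over all arrays, and spots are not independent. Organs were higher than the cell groups at 65 of the 75 spots lower in stroma-vascular cells with the block (86.7%) and at 51.7% of all spots. They were lower at 144 of the 156 spots higher there (92.3%) and at 48.3% of all spots. Of the spots called without the block, organs were higher at 7 of 10 lower ones and lower at 23 of 26 higher ones. The labels of adipocytes and organs give no culture step, whereas stroma-vascular cells and the cell groups were cultured; the part of culture in this pattern was not tested.

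**Figure D4:**
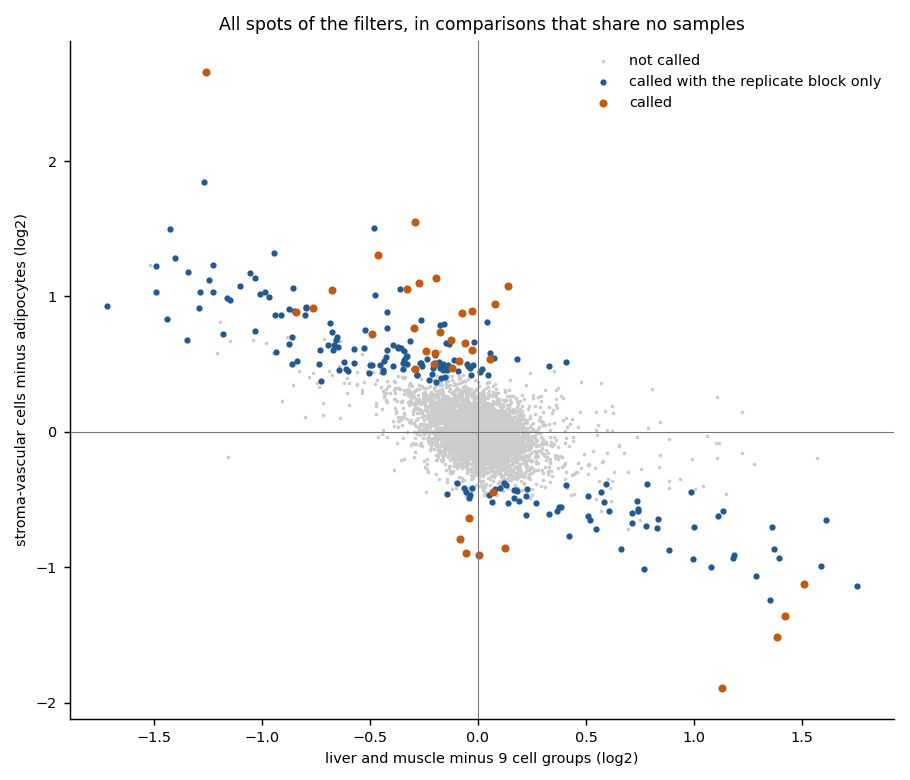
Each of the 5760 spots by its log2 difference of liver and tibialis muscle minus 9 cell groups (horizontal axis) and of stroma-vascular cells minus adipocytes (vertical axis), with called spots in orange and those called with the replicate block only in blue. The spots run from upper left to lower right (r = -0.606), and most called spots lie in those quadrants.

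A second question was whether stroma-vascular cells differ from adipocytes in the way that precursor lines differ from fat cells made in culture. The 4 groups share no sample. Between preadipocyte lines and 3T3-F442A adipocytes 9 spots (0.156%) were called, and none of them was called between stroma-vascular cells and adipocytes. Across 5760 spots both differences correlated with r = 0.03 and had the same sign at 49.0% of spots. Of the 9 spots called in culture, 6 had the same sign in tissue. Lpl, the lipoprotein lipase gene, was -1.40 ± 0.16 in culture (adjusted p = 4.13e-06) and -0.42 ± 0.17 in tissue, where it was not called in either fit. Plin5, a lipid droplet coat protein gene, was -1.03 ± 0.17 in culture (adjusted p = 0.000813) and -0.28 ± 0.18 in tissue, likewise uncalled. The unnamed spot 2489 was -1.62 in culture and -0.60 in tissue, and was the only one of the 9 called in tissue with the block (adjusted p = 0.0145). The difference between both contrasts, tested as an interaction in limma, was called at 17 spots (0.295%), 13 of them with a higher value for the tissue contrast. In this test the 4 preadipocyte lines count as replicates, whereas the 3T3-F442A adipocytes are samples of a single line. Line and differentiation therefore cannot be fully told apart in the culture contrast.

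B2m had the widest gap. Stroma-vascular cells had 406.4, 717 and 947 units, against 125, 273 and 253 units in adipocytes, while the preadipocyte lines had 99.8 (3T3-L1), 129 (3T3-F442A), 242 (Ob1774) and 188 (Hgfu) units, against 349.5, 835 and 790.5 units in 3T3-F442A adipocytes. The tissue contrast was positive and the culture contrast negative (-1.76 ± 0.40), 3.26 ± 0.59 apart (adjusted p = 0.00747). Copz2, a vesicle coat subunit gene, was 0.91 in tissue and -1.09 in culture (2.01 ± 0.44 apart, adjusted p = 0.0328). Mt1 was 0.65 in tissue and -1.24 in culture (1.89 ± 0.40 apart, adjusted p = 0.0267), and the glycolytic gene Aldoa 0.32 and -1.47 (1.79 ± 0.41 apart, adjusted p = 0.0419). In these genes the cultured fat cells were the brightest of the 4 groups or close to it.

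Apol9a and Serpinb2 had another pattern of levels: they were bright in stroma-vascular cells alone of the 4 groups. Apol9a had 49.0, 53.2, 59.5 and 39.0 units in the preadipocyte lines, against 46.3, 76.8 and 78.5 units in 3T3-F442A adipocytes (contrasts 1.33 ± 0.25 apart, adjusted p = 0.00857). Serpinb2 had 32.9 to 39.3 units in the lines, against 42.7 to 49.3 units in 3T3-F442A adipocytes (1.28 ± 0.16 apart, adjusted p = 1.27e-05). On the lower side, Zfp36 was bright in tissue adipocytes alone (contrasts -0.89 ± 0.20 apart, adjusted p = 0.0419). Igfbp7, a secreted growth factor binding protein gene, was -0.42 in tissue and 0.27 in culture (-0.68 ± 0.16 apart, adjusted p = 0.0419). Smaller positive gaps were called for Col4a1 (1.14 ± 0.22, adjusted p = 0.0104), Cmtm3 (1.06 ± 0.21, adjusted p = 0.0188) and Pls3 (0.80 ± 0.18, adjusted p = 0.0412). B2m and Serpinb2 kept this call in each of the 14 fits that leave out 1 array of the 4 groups, Apol9a in 13, Mt1 in 8, Copz2 in 6, Aldoa and Zfp36 in 4 each and Igfbp7 in 3.

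**Figure D5:**
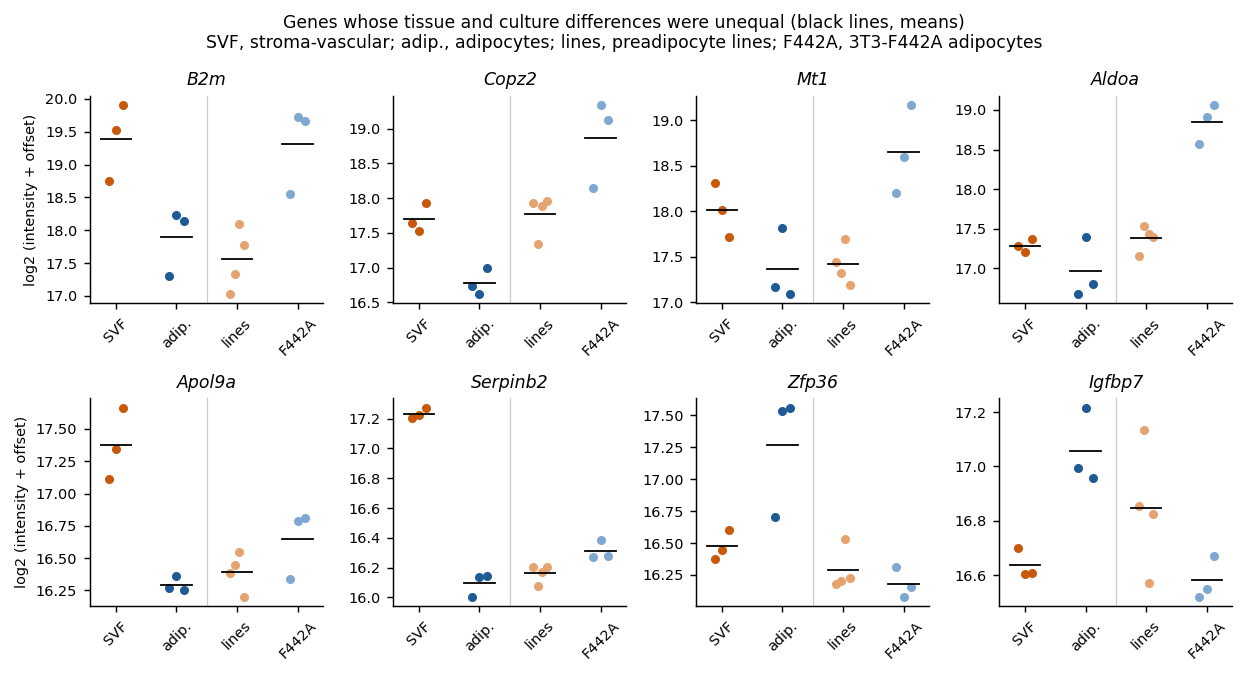
Log2 (normalized intensity plus offset) of 8 of the named genes whose tissue and culture contrasts differed (Col4a1, Cmtm3 and Pls3 are not shown). Columns are stroma-vascular cells, adipocytes, preadipocyte lines (1 point per line) and 3T3-F442A adipocytes, with group means as black lines. B2m, Copz2, Mt1 and Aldoa are bright in 3T3-F442A adipocytes, Apol9a and Serpinb2 in stroma-vascular cells alone, and Zfp36 in tissue adipocytes alone.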

How the data were processed

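The deposited values are linear spot intensities, quantified from nylon filters (Resgen) with Imagene software per the labels' protocols; RNA was taken with Tripure, treated with DNase and labelled with 33P. The sources used here name no background correction or scaling by the authors. The number of arrays limits the precision.

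All 40 arrays were quantile normalized. Log2 was taken after adding 36370, the 10th percentile of normalized intensities. A two-sided moderated test of limma 3.58.1 (R 4.3.3) was fitted over all 14 groups, with the 2 samples of 3T3-L1 averaged and 25 residual degrees of freedom, so each SE rests on the spread of all groups; the fit with the replicate block used the 6 samples alone, with 2. P-values were Benjamini-Hochberg adjusted over 5760 spots. Tests were checked on simulated data.

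Stroma-vascular and adipocyte samples share the numbers 1 to 3 in their titles. Deviations from the group means of same-numbered samples correlated with 0.259, 0.102 and 0.386, and those of other pairs with -0.30 to -0.03. All 3 were over 0.1, the second barely, so the numbers were taken to pair samples. Deviations from a group mean cancel out within the group, so the negative values of other pairs follow in part from the positive ones. They are not separate support for a pairing. This pairing comes from the data, as the labels do not explain the numbers, and the genes called with the block alone depend on it.

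Of the spots, 3420 have 1 gene in the platform annotation, 98 several and 2242 none; 3346 matched a current symbol of GRCm38.p6. In lists, the brightest spot stands for a gene. Genes named are called genes without overlap of groups (up to 15 each way), up to 10 each way called with the block alone, up to 4 of each of 28 lists by smallest p, and up to 6 each way for the difference of contrasts; 27 lists had a measured member. Other list members, Lamtor3 and unnamed spots were named after their values were seen. Members and lists were chosen with earlier results of these data known. Figures used matplotlib 3.10.9 in Python 3.11.15.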

Additional observations from a re-analysis of the deposited data

Results flagged for a closer look

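The tissue and culture contrasts differed by the interaction test for 8 named genes. In log2 units, the tissue contrast minus the culture contrast was 3.26 for B2m, 2.01 for Copz2, 1.89 for Mt1, 1.79 for Aldoa, 1.33 for Apol9a, 1.28 for Serpinb2, -0.89 for Zfp36 and -0.68 for Igfbp7. In 2 of these 8 genes, 1 of the 4 preadipocyte lines lay far from the others: for Copz2 the 3T3-F442A line was lowest, at 130 units of 1000 in normalized intensity against 205 to 217 units in the other lines, with a gap of 0.886 of the range, and for Zfp36 the Ob1774 line was highest, at 58.5 units against 38.0 to 40.4 units, with a gap of 0.869 of the range. Chance marks about 1 in 20 such groups.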

How the results depend on the processing

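The count of 36 called spots depended on the fit and the scaling. Without scaling 1 spot was called, a lower one, and the median of all spots moved to -0.27. Cyclic loess gave 68 calls, and removing a local trend over neighbouring spots gave 57. Only the 6 compared arrays gave 112, with 29 of them among the 36. The same with the replicate block gave 231, and array weights 522. Leaving out each array in turn gave 14 to 37 (14 without adipocyte sample 2, 16 without adipocyte sample 3, 17 without stroma-vascular sample 2), and leaving out both arrays numbered 1, chosen after seeing the data, gave 20. Without adipocyte sample 1, 18 of 37 calls were higher and 19 lower. The other alternatives gave 27 to 41. For the difference from the cultured cells, with 17 calls, there were 0 without scaling, 27 with cyclic loess, 38 with the trend removed, 371 with array weights and 10 without both arrays numbered 1; leaving out each array gave 6 to 24, and the replicate block 19. No call of a named gene reversed its direction. Of 2912 values of named genes under the alternatives, 203 lost a call and 122 gained one. The other 2587 stayed called or stayed uncalled, and an uncalled value could change its sign. Of 22 named genes called between stroma-vascular cells and adipocytes, 6 kept the call whichever 1 of the 6 arrays was left out. Without stroma-vascular sample 1, 12 of the 22 kept it. Limits: 3 arrays a group, no background subtraction, dim spots perhaps near background, and a calling threshold whose count follows the variance model.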
